A study of Mus musculus with 9 samples.

Results

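The genes of glycolytic enzymes were followed in ICOS+ CD4 T cells sorted from mouse tumours. They are Hk2, Pfkp, Pfkfb2, Aldoa, Gapdh, Pgk1, Pgam1, Eno1, Pkm and Ldha, 10 of the 45808 genes in the count table. They were chosen by name for their place in or beside the pathway, with earlier results of these data known, that of Pfkfb2 among them. RNA was read in 9 libraries, 1 per mouse, from 3 mice given anti-CTLA-4, 3 given anti-PD-1 and 3 controls. All mice were C57BL/6J and all carried MC38, a transplanted colon adenocarcinoma line of that strain, and cells were taken on day 12 after the tumour cells were injected. CTLA-4 and PD-1 are inhibitory receptors of T cells, and ICOS is a costimulatory receptor found on activated T cells. The control treatment, antibody clones, doses and cell numbers are not stated in the sources used here. Each antibody was set against the controls and against the other, since the series asks whether they act on T cells in different ways.

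Glycolysis splits glucose into pyruvate, and lactate dehydrogenase turns pyruvate into lactate so that the pathway can keep running. Activated T cells are known to raise glycolysis and to release lactate even where oxygen is present. The transcription factors HIF-1 and Myc are known to act on many genes of these enzymes. Pfkfb2 stands beside the chain of reactions: it encodes a bifunctional enzyme that makes and removes the sugar phosphate that activates phosphofructokinase.

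Gene counts summed to 25530333 to 41508589 per library, and 3 counts corresponded to 0.0723 to 0.118 counts per 1000000 gene counts (CPM), a limit that covers counting error only. CPM is given without further scaling, and the values of a group are in the order of replicates 1, 2 and 3. Detection was uneven: genes with 5 CPM or more numbered 5382, 2662 and 5124 in anti-CTLA-4 mice, 5496, 4209 and 5878 in anti-PD-1 mice and 6258, 6309 and 6051 in controls. The 10 defining markers of CD4 T cells summed to 7661, 3566 and 6030 CPM in anti-CTLA-4 mice, 8965, 9397 and 9194 CPM in anti-PD-1 mice and 7699, 7049 and 8190 CPM in controls. Anti-CTLA-4 replicate 2 stood apart, with the lowest CD4 T cell sum and 8141 CPM over 15 macrophage and monocyte markers, against 271 to 1333 CPM in the other 8 libraries. Of these 15 markers, 10 were highest in it, among them Lyz2, Tyrobp and Il1b, whereas Fcer1g, C1qa and Apoe had 2, 3 and 6 counts. Of the CD4 T cell markers, 3 were highest in it (Cd3d, Cd3g and Trac) and 5 lowest (Cd3e, Cd4, Trbc2, Icos and Cd28). Its 5 fibroblast markers summed to 1597 CPM, against 31.4 to 376 CPM in the others, almost all from 3 collagen genes, with Dcn near 0. The neutrophil sum of 267 CPM in it was Mmp9 alone, with the other 4 markers at 0. Cd8a and the NK cell markers Ncr1, Klrb1c and Eomes had 0 counts in every library, while Cd8b1 stood at 125 CPM in anti-PD-1 replicate 3 and at most at 0.118 CPM elsewhere. In such bulk samples fewer cells of a type and less RNA per cell cannot be told apart.

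Several of these genes have near-identical copies elsewhere in the genome, which matters for how they were counted. A copy here is an annotated gene outside the member, at least 85% identical to its longest coding transcript over at least 150 aligned bases. Gapdh (ENSMUSG00000057666, GRCm38 chromosome 6, 125161715 to 125166467, minus strand) had 297 such copies, 288 of them pseudogenes, and 80.2% of the 76-base windows of its transcript, the length of 1 read, also occurred in another gene. Alignments that were not unique made up 24.3% to 31.1% of all counts in a library and were set aside, so reads of such windows may be missing from the gene. The share of windows found elsewhere was 67.5% for Pgk1, 65.2% for Eno1, 40.6% for Pgam1, 15.1% for Pkm, 5.0% for Ldha and 1.29% for Aldoa. Hk2, Pfkp and Pfkfb2 had no copy and no shared window.

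The next sequences show how little separates a member from its copies, in a stretch as long as 1 read. The first pair starts at the start codon of Gapdh (bases 241 to 316 of the transcript) and sets it against Gm10358 on chromosome 8, a copy that was 99.1% identical over 1249 bases. The second pair is from Eno1 (bases 1556 to 1631) and Gm4735 (chromosome 2, 80837141 to 80838442), 99.6% identical over 1302 bases. Capitals mark the bases that differ within a pair.
Gapdh: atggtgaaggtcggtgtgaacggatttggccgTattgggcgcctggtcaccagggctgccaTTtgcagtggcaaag
Gm10358: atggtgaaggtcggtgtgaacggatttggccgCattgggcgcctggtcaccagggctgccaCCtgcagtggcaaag
Eno1: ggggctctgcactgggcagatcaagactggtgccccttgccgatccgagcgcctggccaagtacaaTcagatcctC
Gm4735: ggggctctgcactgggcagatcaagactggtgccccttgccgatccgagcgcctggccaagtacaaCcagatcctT
A single read of such a stretch differs between the genes of a pair only at the bases in capitals. The libraries were read as paired reads, so the mate of a read may also place it. The shares of windows do not take this into account.

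**Figure D1:**
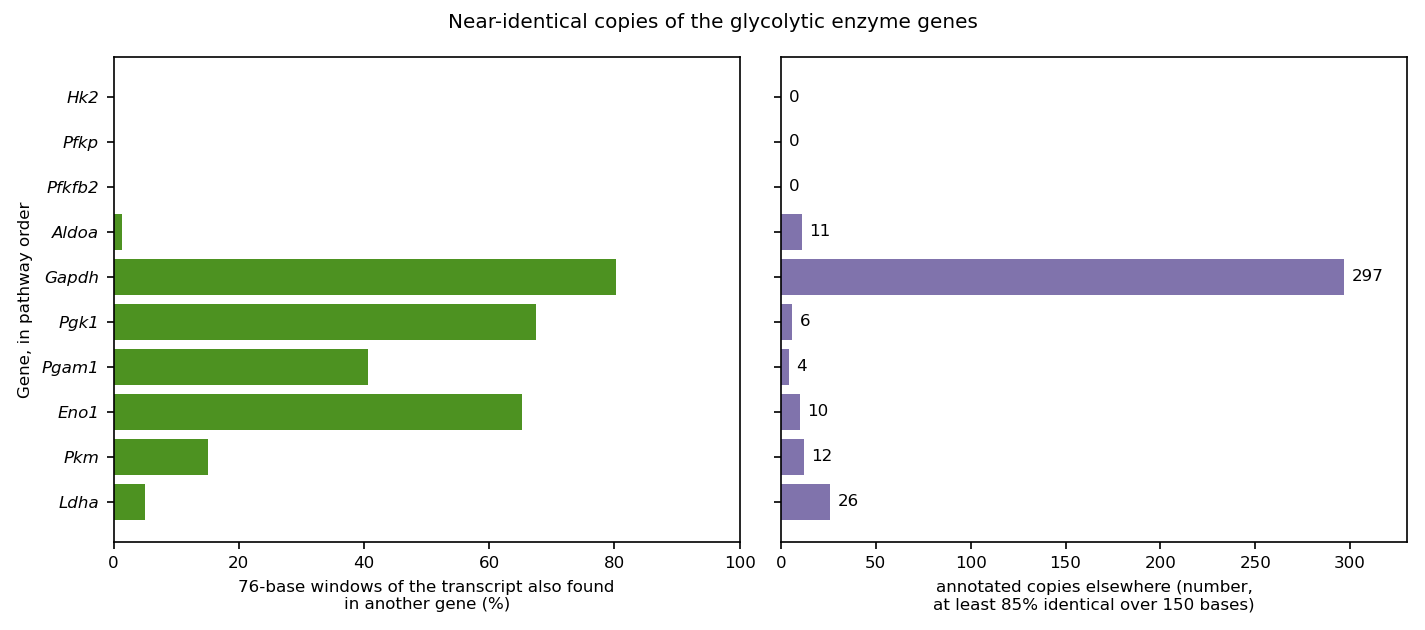
Bars give, for each gene in pathway order, the share of 76-base windows of its longest coding transcript that also occur in another gene (left, %) and the number of annotated copies (right). Gapdh had the most copies, 297, and the largest share, 80.2%, while Hk2, Pfkp and Pfkfb2 had none.

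Gapdh was the most abundant of the enzymes, and the order of the others was less firm. Levels are compared between genes as CPM per kilobase of the longest coding transcript, over all 9 libraries. Gapdh stood at 1725 ± 496 CPM per kilobase (SD, n = 9), above Pkm in 9 of 9 libraries. Pkm followed at 388 ± 171 CPM per kilobase and Ldha at 271 ± 144, with Pkm the higher in 6 of 9 libraries. Aldoa (183 ± 89.0), Eno1 (180 ± 121), Pgam1 (120 ± 57.0) and Pgk1 (106 ± 43.7 CPM per kilobase) came next, and each differed from its neighbour by less than the spread between libraries. Pfkp stood at 59.5 ± 38.1 CPM per kilobase, below Pgk1 in 7 of 9 libraries. Pfkfb2 (18.0 ± 49.6) and Hk2 (6.79 ± 8.92 CPM per kilobase) were lowest and each was near 0 in part of the libraries. Genes with many shared windows are read low on this scale, so the levels of Gapdh, Pgk1, Eno1 and Pgam1 may be too low.

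**Figure D2:**
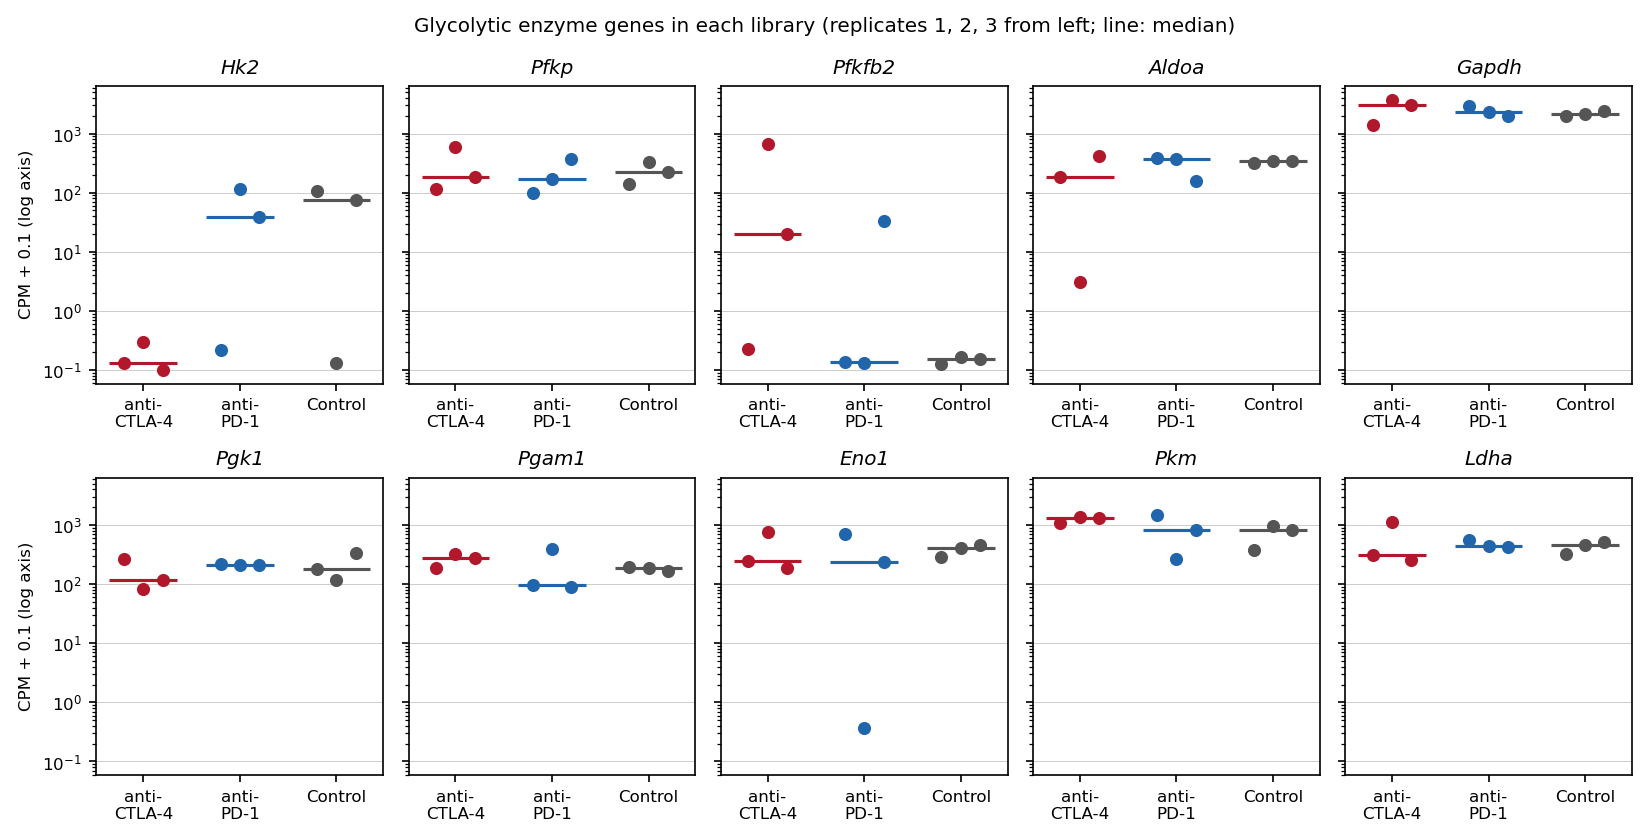
Each panel shows 1 gene, with its level in each library on a log axis (CPM + 0.1) and the group median as a line. Hk2 was near 0 in all 3 anti-CTLA-4 libraries and Pfkfb2 in all 3 controls, while Aldoa and Eno1 each had 1 library far below the rest.

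Hk2, which encodes the hexokinase isoform that activated cells use to trap glucose (ENSMUSG00000000628, chromosome 6, 82725025 to 82774454, minus strand), was present or all but absent from mouse to mouse. It stood at 0.0328, 0.197 and 0 CPM in anti-CTLA-4 mice, at 0.118, 116 and 38.7 CPM in anti-PD-1 mice and at 107, 0.0322 and 75.5 CPM in controls. All 3 anti-CTLA-4 libraries were near 0, with 1, 7 and 0 counts, but so were anti-PD-1 replicate 1 (3 counts) and Control replicate 2 (1 count), so the groups overlapped. The pooled level was 0.0810 CPM in anti-CTLA-4 mice and 65.8 CPM in controls, a ratio of 0.00123 (95% exact binomial interval 0.000531 to 0.00243, counting error only). Between mice the difference did not pass (unadjusted p = 0.0382 and adjusted p = 0.435 against controls, unadjusted p = 0.0356 and adjusted p = 0.337 against anti-PD-1, Benjamini-Hochberg, edgeR quasi-likelihood).

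Pfkp encodes a phosphofructokinase, the enzyme of the committed step (ENSMUSG00000021196, chromosome 13, 6579768 to 6648777, minus strand). It was read in every library, at 117, 589 and 183 CPM in anti-CTLA-4 mice, 96.9, 170 and 367 CPM in anti-PD-1 mice and 140, 330 and 228 CPM in controls. Anti-CTLA-4 replicate 2 was the highest library, and the groups overlapped. The fitted log2 fold change was 1.62 (SE 1.19) for anti-CTLA-4 against controls and 0.08 (SE 1.16) for anti-PD-1 against controls, with adjusted p of 0.683 and 1.0 (Benjamini-Hochberg, edgeR quasi-likelihood). Without anti-CTLA-4 replicate 2 the first of these was -0.44. Its neighbour Pitrm1 overlaps it. The counts are labelled as first strand, but how reads in the overlap were assigned was not tested.

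Pfkfb2 (ENSMUSG00000026409, chromosome 1, 130689182 to 130729253, minus strand) was the only one of the 10 genes that passed the test, for anti-CTLA-4 against controls. It stood at 0.131, 664 and 19.8 CPM in anti-CTLA-4 mice, at 0.0392, 0.0302 and 33.6 CPM in anti-PD-1 mice and at 0.0241, 0.0643 and 0.0559 CPM in controls. In counts these were 4, 23619 and 646 in anti-CTLA-4 mice, 1, 1 and 1149 in anti-PD-1 mice and 1, 2 and 2 in controls. It was thus high in anti-CTLA-4 replicate 2, present in anti-CTLA-4 replicate 3 and anti-PD-1 replicate 3, and near 0 in the other 6 libraries. The anti-CTLA-4 and control groups did not overlap, but only by 4 counts against 2 at their nearest libraries. The pooled level was 246 CPM in anti-CTLA-4 mice against 0.0461 CPM in controls, a ratio of 5329 (95% exact binomial interval 2283 to 16414, counting error only).

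The fitted log2 fold change of Pfkfb2 was 13.68 (SE 2.53, adjusted p = 0.000158, Benjamini-Hochberg, edgeR quasi-likelihood), a size that depends on how near-zero counts are handled. The call rested on 1 mouse: without anti-CTLA-4 replicate 2 the fitted change was 7.82 with an adjusted p of 0.657. Over 18 alternative fits the adjusted p, where given, ranged from 2.21e-05 to 0.958, and the call was lost in 7 of them. DESeq2 is among these 7 because it gave Pfkfb2 no adjusted p. That library was also the one with the fewest genes detected and the highest macrophage and monocyte marker sum, and the part of either in the level of Pfkfb2 was not tested. Against anti-PD-1, the fitted log2 fold change for anti-CTLA-4 was 5.87 and did not pass (SE 1.87, adjusted p = 0.116, edgeR quasi-likelihood, Benjamini-Hochberg). Anti-PD-1 against controls gave 7.82 (SE 2.05, adjusted p = 0.108, edgeR quasi-likelihood, Benjamini-Hochberg), a value carried by anti-PD-1 replicate 3, without which it was -0.15.

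Aldoa encodes the aldolase that splits the sugar into triose phosphates (ENSMUSG00000030695, chromosome 7, 126795234 to 126800751, minus strand). It stood at 186, 3.04 and 420 CPM in anti-CTLA-4 mice, 386, 376 and 157 CPM in anti-PD-1 mice and 323, 346 and 350 CPM in controls. The controls were close together, at 340 ± 14.7 CPM (SD, n = 3), whereas anti-CTLA-4 replicate 2 had almost none of it. The groups overlapped, and the fitted log2 fold change for anti-CTLA-4 against controls was -0.55 (SE 1.29, adjusted p = 1.0, edgeR quasi-likelihood, Benjamini-Hochberg).

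Gapdh, which encodes the dehydrogenase that oxidises glyceraldehyde phosphate, varied least. It stood at 1387, 3769 and 3013 CPM in anti-CTLA-4 mice, 2969, 2332 and 2015 CPM in anti-PD-1 mice and 1992, 2137 and 2436 CPM in controls. Its highest library was 2.72 times its lowest, both being anti-CTLA-4 libraries on either side of all the controls. The group means were 2723 ± 1217 CPM in anti-CTLA-4 mice, 2439 ± 486 CPM in anti-PD-1 mice and 2188 ± 226 CPM in controls (SD, n = 3 each). The fitted log2 fold change for anti-CTLA-4 against controls was 1.32 (SE 0.45, unadjusted p = 0.00356, adjusted p = 0.264, Benjamini-Hochberg, edgeR quasi-likelihood). Fits use TMM scaling factors, and that of anti-CTLA-4 replicate 2 was 0.407 against 0.83 to 1.26 in the others, so the fitted change is larger than the ratio of the CPM means. With library totals only it was 0.32. Without anti-CTLA-4 replicate 2 it was 0.21 with an adjusted p of 1.0, and without anti-CTLA-4 replicate 1 it passed, at 1.63 with an adjusted p of 0.0264.

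The copies of Gapdh did not follow Gapdh. The table holds 266 of them, and their summed counts came to 1.90%, 1.20% and 0.854% of the Gapdh count in anti-CTLA-4 mice, 1.21%, 2.41% and 2.27% in anti-PD-1 mice and 5.78%, 5.19% and 4.25% in controls. Every treated library was below every control library. Among all tested genes without overlap, lower was also the more common direction. For anti-CTLA-4 against controls 815 were lower and 123 higher, and for anti-PD-1 against controls 576 were lower and 271 higher. The means were 1.32% ± 0.535 in anti-CTLA-4 mice, 1.96% ± 0.656 in anti-PD-1 mice and 5.07% ± 0.770 in controls (SD, n = 3 each). Exact two-sided permutation tests gave p = 0.1 for either antibody against controls (adjusted p = 0.150 over 3 comparisons), and 0.1 is the lowest value that 3 against 3 can give. Few copies made up the sum: in Control replicate 1, Gm17068 alone held 2637 of 4779 counts, and 2 to 5 copies reached 100 counts in any library. This measure was chosen after its values were seen, and control libraries also had the most genes at 5 CPM, whose part in it was not tested. Adding the copies to Gapdh left its fitted change for anti-CTLA-4 against controls at 1.27 (adjusted p = 0.308, edgeR quasi-likelihood, Benjamini-Hochberg).

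**Figure D3:**
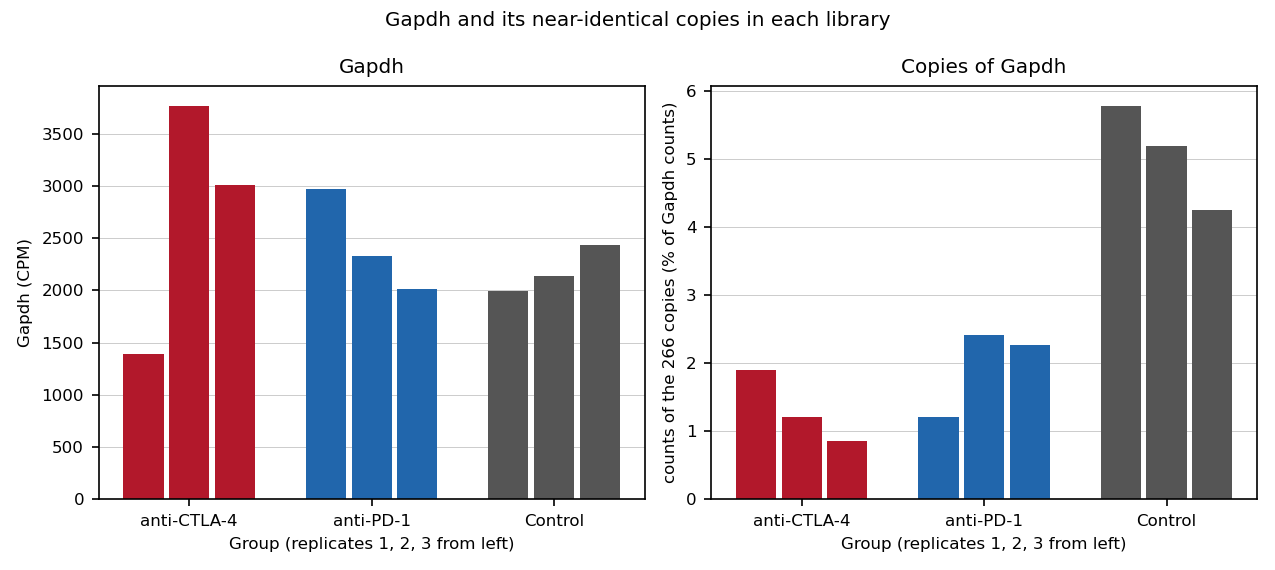
Bars show Gapdh in CPM (left) and the counts of its 266 copies as a percentage of Gapdh counts (right), for replicates 1, 2 and 3 of each group. Gapdh overlapped between groups, whereas the copies came to at most 2.41% in any treated library and to 4.25% to 5.78% in controls. The share of copies was chosen as a measure after its values were seen.

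Pgk1 encodes phosphoglycerate kinase, the first enzyme of the chain that yields ATP (ENSMUSG00000062070, chromosome X, 106187100 to 106203699, plus strand). It stood at 267, 83.8 and 117 CPM in anti-CTLA-4 mice, 219, 207 and 207 CPM in anti-PD-1 mice and 181, 118 and 338 CPM in controls. The anti-PD-1 mice were close together at 211 ± 6.95 CPM (SD, n = 3), inside the range of the controls. The fitted log2 fold change was 0.09 (SE 1.5) for anti-CTLA-4 and 0.23 for anti-PD-1 against controls, and neither passed. Its copy Pgk1-rs7 (chromosome 12, 10898986 to 10900240, minus strand) matches Pgk1 in all of its 1180 windows, yet had 0, 0 and 1594 counts in anti-CTLA-4 mice, 0, 0 and 52 in anti-PD-1 mice and 1, 969 and 1 in controls. In anti-CTLA-4 replicate 3 this came to 41.7% of the Pgk1 count and in Control replicate 2 to 26.5%. How many reads of either gene were set aside as not unique is not measured by these counts.

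Pgam1 encodes phosphoglycerate mutase (ENSMUSG00000011752, chromosome 19, 41911923 to 41918660, plus strand). It stood at 191, 330 and 274 CPM in anti-CTLA-4 mice, 95.8, 393 and 90.5 CPM in anti-PD-1 mice and 198, 188 and 165 CPM in controls. The anti-PD-1 mice lay on both sides of the controls, and the anti-CTLA-4 mice overlapped them at their lowest library. The fitted log2 fold change was 1.47 (SE 1.31, adjusted p = 0.848, edgeR quasi-likelihood, Benjamini-Hochberg) for anti-CTLA-4 against controls, and 0.53 without anti-CTLA-4 replicate 2.

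Eno1 encodes enolase, which forms phosphoenolpyruvate (ENSMUSG00000063524, chromosome 4, 150236721 to 150248879, plus strand). It stood at 251, 764 and 190 CPM in anti-CTLA-4 mice, 696, 0.272 and 236 CPM in anti-PD-1 mice and 283, 410 and 457 CPM in controls. Anti-PD-1 replicate 2 held 9 counts, so the highest library was 2809 times the lowest, the widest range among members read in every library apart from Pfkfb2. The copy Gm4735 shown beside Eno1 above had 1082 counts in anti-CTLA-4 replicate 3 and at most 15 in any other library. Eno1 gave a fitted log2 fold change of 1.29 (SE 1.0) for anti-CTLA-4 and -0.23 (SE 0.99) for anti-PD-1 against controls, with adjusted p of 0.734 and 1.0 (Benjamini-Hochberg, edgeR quasi-likelihood).

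Pkm, which encodes the pyruvate kinase of most tissues (ENSMUSG00000032294, chromosome 9, 59656368 to 59679375, plus strand), was the only member at high levels in all libraries whose anti-CTLA-4 and control groups did not overlap. It stood at 1073, 1347 and 1304 CPM in anti-CTLA-4 mice, 1477, 264 and 829 CPM in anti-PD-1 mice and 386, 970 and 838 CPM in controls. Every anti-CTLA-4 library was above every control, by 1073 against 970 CPM at the nearest, while the anti-PD-1 libraries spanned the whole range. The means were 1241 ± 147 CPM in anti-CTLA-4 mice, 857 ± 607 CPM in anti-PD-1 mice and 732 ± 306 CPM in controls (SD, n = 3 each). For anti-CTLA-4 against controls the fitted log2 fold change was 1.64 (SE 0.69, unadjusted p = 0.0174, adjusted p = 0.432, Benjamini-Hochberg, edgeR quasi-likelihood) and did not pass. It was 0.77 with library totals only and 0.89 without anti-CTLA-4 replicate 2. The counts do not separate the splice forms of Pkm.

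Ldha encodes the lactate dehydrogenase subunit that makes lactate from pyruvate (ENSMUSG00000063229, chromosome 7, 46841475 to 46855627, plus strand). It stood at 317, 1136 and 252 CPM in anti-CTLA-4 mice, 562, 439 and 420 CPM in anti-PD-1 mice and 323, 462 and 512 CPM in controls. Anti-CTLA-4 replicate 2 was the highest library, and anti-CTLA-4 replicates 1 and 3 were below every control. The fitted log2 fold change was 1.66 (SE 0.86, unadjusted p = 0.0538, adjusted p = 0.435, Benjamini-Hochberg, edgeR quasi-likelihood) for anti-CTLA-4 against controls, and -0.43 without anti-CTLA-4 replicate 2.

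All 10 genes passed the filter on low counts, Pfkfb2 through 3 libraries and Hk2 through 4. For anti-CTLA-4 against controls, 1 of the 10 was called, where 0.369% of 7858 tested genes were called. That call, of Pfkfb2, was known when the 10 genes were chosen, so their share cannot be weighed against that of all genes. Pfkfb2 also enters the other counts of this comparison. The median fitted log2 fold change was 1.40 over the 10 genes and 0.01 over all tested genes, with 8 of the 10 positive against 50.2% of all. Without anti-CTLA-4 replicate 2 the median of the 10 was 0.03 with 6 positive, with library totals only 0.34, and with voom -0.04. Groups did not overlap for 2 of the 10, Pfkfb2 and Pkm, both higher, beside 11.9% of all tested genes, of which 123 were higher and 815 lower. At an unadjusted p under 0.05 stood 4 of the 10 and 11.3% of all. Of the 10 genes, 5 had their highest library in anti-CTLA-4 replicate 2, namely Pfkp, Pfkfb2, Gapdh, Eno1 and Ldha, and 2 their lowest, Aldoa and Pgk1. The share of all tested genes that were highest or lowest in that library was not computed. The part of the high macrophage, monocyte and fibroblast marker sums of that library in these levels was not tested.

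For anti-PD-1 against controls, 0 of the 10 were called with edgeR's quasi-likelihood test, beside 0.0764% of all tested genes, and 1 (Pfkfb2) had an unadjusted p under 0.05, as did 6.01% of all. DESeq2, which gave an adjusted p to 3 of them, also called 0. The median fitted log2 fold change was 0.30, against 0.07 over all genes, and groups overlapped for each of the 10, where 10.8% of all genes had no overlap. For anti-CTLA-4 against anti-PD-1, 0 of the 10 were called with edgeR, beside 0.827% of all, and Hk2, Pfkfb2 and Gapdh had an unadjusted p under 0.05, as did 14.1% of all. DESeq2 again called 0, with an adjusted p for 3. The median was 1.13 against -0.05 over all genes, but -0.19 with 2 of 10 positive when anti-CTLA-4 replicate 2 was left out and -0.09 with voom. The groups overlapped for each of the 10, where 9.76% of all genes had no overlap. The 2 comparisons with controls share the control mice.

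**Figure D4:**
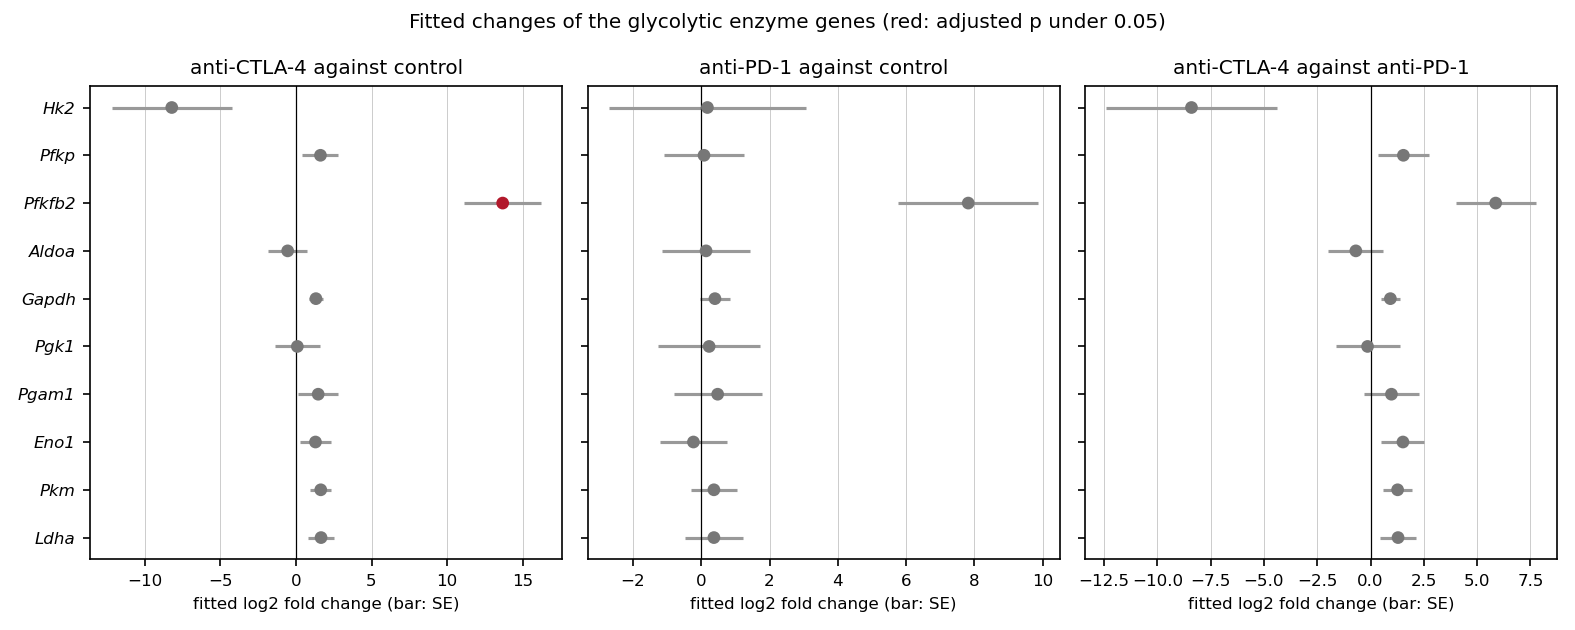
Points give the fitted log2 fold change of each gene and bars its standard error, for the 3 comparisons, each with its own horizontal scale. Pfkfb2 for anti-CTLA-4 against controls, at 13.68, is the only red point (adjusted p under 0.05). Apart from Pfkfb2, and from Hk2 where anti-CTLA-4 enters, the points lie between -0.69 and 1.66.

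Summed over the 10 genes, the level of the pathway overlapped between all 3 groups. The sum was 3790, 8686 and 5773 CPM in anti-CTLA-4 mice, 6503, 4296 and 4394 CPM in anti-PD-1 mice and 3934, 4962 and 5399 CPM in controls. The means were 6083 ± 2463 CPM, 5064 ± 1246 CPM and 4765 ± 752 CPM in the same order (SD, n = 3 each). Anti-CTLA-4 mice held both the lowest and the highest sum. Gapdh made up 36.6% to 54.3% of the sum. Without it the means were 3360 ± 1360 CPM in anti-CTLA-4 mice, 2626 ± 813 CPM in anti-PD-1 mice and 2576 ± 554 CPM in controls.

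The genes also differed in how steady they were. The spread is the root mean square deviation of log2(CPM + 1) from the gene's own mean over the 9 libraries, set beside the median spread of tested genes within 2-fold of its mean level. Pgk1 (0.60 against 2.17), Pgam1 (0.68 against 2.02), Pfkp (0.79 against 1.65) and Ldha (0.59 against 0.92) were steadier than genes of their level. Gapdh (0.40 against 0.44) was close to the median of its level. Pkm (0.80 against 0.67) and Aldoa (2.01 against 1.40) were above it, with a larger spread than 63.6% and 63.0% of genes of their level. Eno1 (2.65 against 1.12), Hk2 (3.11 against 2.70) and Pfkfb2 (3.19 against 2.60) varied more than 95.9%, 94.7% and 93.4% of such genes.

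Genes whose profile over the 9 libraries lay nearest to a member were found by the root mean square difference of the centred log2(CPM + 1) values. Gdi2 was nearest to Aldoa, at 0.18, and Ptp4a2 nearest to Gapdh, at 0.23. Ldha was nearest to Tcf20 (0.26), Pgam1 to Rab1 (0.30), Pkm to Tbc1d10b (0.33), Pgk1 to Isy1 (0.34), Hk2 to Cfap36 (0.34) and Pfkp to Ttc14 (0.39). Eno1 (Serpina3g, 0.59) and Pfkfb2 (Ms4a6c, 0.81) had the most distant nearest genes. The second nearest genes were Purb, Tmco1, Serbp1, mt-Nd5, Eef2, Il7r, Cspp1, Irf1, Creb3l2 and Smarcd1 in the same order. No member was among the 2 nearest genes of another member.

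Other genes of the pathway were read less often. Of 31 other glycolysis and lactate genes 15 were tested, and 0 were called in each of the 3 comparisons with edgeR, beside 0, 1 and 2 at an unadjusted p under 0.05. Over all genes that unadjusted mark was passed by 11.3%, 6.01% and 14.1%. DESeq2 called 0, 1 and 2 of the 9 to which it gave an adjusted p, beside 12.8%, 12.0% and 14.5% of all genes given one. The medians were 0.40 for anti-CTLA-4 against controls, 0.88 for anti-PD-1 against controls and -0.26 for anti-CTLA-4 against anti-PD-1. Gpi1, the isomerase between hexokinase and phosphofructokinase, stood at 113, 178 and 139 CPM in anti-CTLA-4 mice, 720, 0.363 and 485 CPM in anti-PD-1 mice and 187, 449 and 426 CPM in controls. All 3 anti-CTLA-4 values were below every control (adjusted p = 1.0, edgeR quasi-likelihood, Benjamini-Hochberg). Gpi1 was the only 1 of the 15 without overlap there, beside 11.9% of all tested genes. Hk1, a hexokinase of most tissues, stood at 83.8, 579 and 124 CPM in anti-CTLA-4 mice, 436, 149 and 129 CPM in anti-PD-1 mice and 18.3, 152 and 209 CPM in controls. It was read in every library, also in those where Hk2 was near 0. Slc2a1, a glucose transporter, stood at 194, 110 and 124 CPM in anti-CTLA-4 mice, 261, 188 and 437 CPM in anti-PD-1 mice and 53.3, 201 and 299 CPM in controls, with overlap between all groups.

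Among 24 regulators and genes of pyruvate entry 22 were tested and 0 were called in each comparison with edgeR, beside 2, 1 and 4 at an unadjusted p under 0.05. DESeq2 called 3, 2 and 4 of 20 given an adjusted p. The shares over all genes for the unadjusted mark and for DESeq2 were those given above. Their medians were -0.67, 0.02 and -0.63 for anti-CTLA-4 against controls, anti-PD-1 against controls and anti-CTLA-4 against anti-PD-1. For anti-CTLA-4 against controls, 6 of them had no overlap, all lower (Hif1a, Epas1, Max, Egln2, Vegfa and Prkaa1), where 11.9% of all genes had none in either direction. Hif1a, the oxygen-regulated subunit of HIF-1, stood at 521, 1.52 and 692 CPM in anti-CTLA-4 mice, 305, 993 and 934 CPM in anti-PD-1 mice and 809, 1054 and 1041 CPM in controls. It was almost absent from anti-CTLA-4 replicate 2 (adjusted p = 0.744 for anti-CTLA-4 against controls, edgeR quasi-likelihood, Benjamini-Hochberg). In that library Pfkp, Pfkfb2, Gapdh, Eno1 and Ldha were highest, whereas Aldoa and Pgk1 were lowest. The part of Hif1a in these levels was not tested. Max, the partner of Myc, stood at 83.9, 29.4 and 82.3 CPM in anti-CTLA-4 mice, 377, 23.9 and 63.4 CPM in anti-PD-1 mice and 223, 271 and 99.8 CPM in controls. Arnt, the other subunit of HIF-1, stood at 154, 0.225 and 116 CPM in anti-CTLA-4 mice, 315, 16.3 and 118 CPM in anti-PD-1 mice and 89.6, 259 and 303 CPM in controls, with overlap. The anti-CTLA-4 libraries also had fewer genes at 5 CPM than every control, and the part of this in the lower values was not tested.

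Of 18 genes of side branches 14 were tested, and 0, 0 and 1 were called in the 3 comparisons in the same order, beside 1, 2 and 3 at an unadjusted p under 0.05, while DESeq2 called 1, 2 and 2 of 11 given an adjusted p. Over all genes edgeR called 0.369%, 0.0764% and 0.827%, the unadjusted mark was passed by 11.3%, 6.01% and 14.1%, and DESeq2 called 12.8%, 12.0% and 14.5%. Their medians were -0.28, -2.07 and 1.01. The called gene was Psph, the last enzyme of serine synthesis from a glycolytic intermediate, higher in anti-CTLA-4 than in anti-PD-1 mice. It stood at 0.0985, 613 and 32.9 CPM in anti-CTLA-4 mice, 0.0392, 0.0604 and 0.205 CPM in anti-PD-1 mice and 0.120, 50.3 and 64.3 CPM in controls. Replicates 2 and 3 of anti-CTLA-4 were high, while replicate 1 was within the anti-PD-1 range (adjusted p = 0.000271, Benjamini-Hochberg, edgeR quasi-likelihood). Its adjusted p was 0.542 when anti-CTLA-4 replicate 2 was left out, and over the alternatives it ranged from 6.15e-05 to 0.874. Psat1, the preceding enzyme of serine synthesis, stood at 224, 508 and 109 CPM in anti-CTLA-4 mice, 69.3, 30.1 and 0.321 CPM in anti-PD-1 mice and 257, 105 and 12.3 CPM in controls. Its anti-CTLA-4 and anti-PD-1 groups did not overlap (adjusted p = 0.310, edgeR quasi-likelihood, Benjamini-Hochberg). In that comparison 2 of the 14 tested genes had no overlap, both higher, beside 9.76% of all tested genes. Against controls, 2 of the 14 for anti-CTLA-4 and 4 for anti-PD-1 had none, all lower, beside 11.9% and 10.8% of all. Mdh1, a malate dehydrogenase, stood at 215, 47.8 and 131 CPM in anti-CTLA-4 mice, 97.9, 259 and 140 CPM in anti-PD-1 mice and 208, 194 and 92.8 CPM in controls. Got1, an aspartate aminotransferase, stood at 129, 0.0843 and 2.23 CPM in anti-CTLA-4 mice, 6.93, 0.0906 and 80.7 CPM in anti-PD-1 mice and 154, 106 and 327 CPM in controls.

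The promoters of the 10 genes were read from RefSeq (GRCm38.p6) as the 250 bases before each annotated start, which gave 18 windows for all 10 genes. The letters ACGTG, 1 form of the core that HIF-1 is known to bind, were searched on both strands. Other forms of that core were not searched, so a gene without ACGTG may still hold the core. The E-box CACGTG that Myc and Max are known to bind was searched in the same way. Each CACGTG also holds ACGTG on both strands and counts as 2 matches of it. ACGTG was found in at least 1 window of 7 of the 10 genes, all but Pfkp, Gapdh and Eno1, beside 18.5% of all genes with a window. By window this was 9 of 18, beside 16.6% of all 32851 windows in the table. Windows of a gene can overlap, and the 2 Aldoa windows with a match hold the same site. CACGTG was found in 2 of 18 windows, beside 6.02% of all, and the genes were Pfkfb2 and Ldha. Both windows are shown, since they hold the E-boxes of the set, with the matches in capitals and each strand read in the direction of the gene. The window of Ldha at chr7:46845554-46845803 (plus strand) has 5 matches of ACGTG, and that of Pfkfb2 at chr1:130715822-130716071 (minus strand) has 2.
Ldha promoter: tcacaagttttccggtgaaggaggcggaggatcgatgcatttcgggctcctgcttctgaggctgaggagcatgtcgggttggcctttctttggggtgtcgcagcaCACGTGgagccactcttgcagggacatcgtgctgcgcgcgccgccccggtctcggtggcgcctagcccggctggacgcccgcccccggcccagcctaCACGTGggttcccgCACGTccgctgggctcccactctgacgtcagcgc
Pfkfb2 promoter: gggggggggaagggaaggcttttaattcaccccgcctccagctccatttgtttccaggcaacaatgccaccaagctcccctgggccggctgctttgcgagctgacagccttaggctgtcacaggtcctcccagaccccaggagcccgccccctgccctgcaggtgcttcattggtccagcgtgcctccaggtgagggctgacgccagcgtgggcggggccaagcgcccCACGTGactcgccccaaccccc
A match of these letters is a description and not a binding site. Of the 7 genes with the motif, Pfkfb2 and Hk2 were near 0 in part of the libraries and Aldoa stood at 3.04 CPM in anti-CTLA-4 replicate 2, whereas Ldha, Pgk1, Pgam1 and Pkm stood at 83.8 CPM or more in all 9.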

How the data were processed

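Gene counts were measured by RNA-seq in 9 libraries of sorted cells, 1 per mouse (n = 3 per group), made with a single-cell amplification kit and read as 76-base pairs, per the labels' protocols. The authors deposited raw counts per gene symbol, with no normalization. Per the submitters' processing notes, the tools were TopHat2, HTSeq and DESeq2 and the genome build was GRCm38. Tool versions, gene annotation and strand setting are not stated in the sources used here. Rows that name no gene were left out of totals and tests, and of these the alignments that were not unique made up 24.3% to 31.1% of counts.

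Genes were tested with the quasi-likelihood method of edgeR 4.0.16 in R 4.3.3 (robust, TMM factors, filterByExpr with a minimum count of 10) over 9 libraries with group as the only term. It was adjusted by Benjamini-Hochberg over 7858 genes, with a threshold of 0.05. DESeq2 1.42.0 and limma 3.58.1 (voom) were among the alternatives. P-values rest on a spread between mice that the fit largely shared across genes. They reflect the spread of a gene's own libraries only in part. The SE values rest on the same shared spread and did not follow the spread of each gene between its own libraries. Fits were also run on simulated counts, with a single spread for all genes and the same fold change in every library of a group. Genes such as Pfkfb2 instead were high in some libraries of a group and near 0 in others. The simulated counts thus do not bear on the calls made here.

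Copies were found by aligning transcripts of GENCODE mouse release M21 with blastn, and positions are from that annotation. Named genes were all 10 members, any called gene of the 3 lists of related genes, the 3 of each list with the highest mean CPM, and the 2 nearest profiles of each member. The members and lists were chosen with earlier results of these data known, and the call of Pfkfb2 was among those.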

Additional observations from a re-analysis of the deposited data

How the results depend on the processing

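Over the 30 results of 10 genes in 3 comparisons, 566 alternative values were computed. Direction and side of the threshold were kept in 501, the direction turned in 56, from 20 results that had not been called, 7 lost a call and 2 gained one. A fit that gave a gene no adjusted p was taken as not calling it. For anti-CTLA-4 against controls the count of called members, 1, was 0 with RLE factors, library totals only, DESeq2 (which gave an adjusted p to 3 members), voom, these 2 groups only (where the filter removed Pfkfb2), the replicate block and without the 2 libraries with the fewest genes, a setting chosen after seeing the data. Leaving out single libraries gave 0 to 2. For anti-CTLA-4 against anti-PD-1 it was 0 to 1, with Pfkfb2 called without anti-PD-1 replicate 3. Same-numbered libraries did not deviate together (9 pairs, correlations -0.040 to 0.016), so the replicate block is a formal alternative only. The cause of these changes was not tested.

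Fitted log2 fold changes that turned, for anti-CTLA-4 against controls, were Pfkp -0.15, Eno1 -0.38 and Ldha -0.18 with voom, Pgk1 -0.44 with library totals only, and Pfkp -0.44, Aldoa 0.04, Eno1 -0.63 and Ldha -0.43 without the 2 libraries. For anti-PD-1 against controls they were Hk2 -0.24, Pfkp -0.14, Aldoa -0.15 and Pgk1 -0.01 with library totals only, Hk2 -0.25, Pfkp -0.04, Aldoa -0.28 and Pgam1 -0.50 with voom, Hk2 -1.71 and Pgam1 -0.18 with the replicate block, and Hk2 -1.59, Aldoa -0.28, Pgam1 -0.93 and Eno1 0.33 without the 2 libraries. For anti-CTLA-4 against anti-PD-1 they were Pfkp -0.11, Gapdh -0.06 and Ldha -0.47 with voom, Pgk1 1.65 with RLE factors and 1.47 with DESeq2, and Pfkp -0.50, Pfkfb2 -0.59, Aldoa 0.32, Gapdh -0.03, Eno1 -0.95 and Ldha -0.66 without the 2 libraries.

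Leaving out single libraries gave these ranges. For anti-CTLA-4 against controls they were -0.44 to 1.96 for Pfkp, -1.71 to 0.04 for Aldoa, -0.29 to 0.51 for Pgk1, -0.62 to 1.60 for Eno1 and -0.43 to 1.97 for Ldha. For anti-PD-1 against controls they were -1.58 to 0.87 for Hk2, -0.41 to 0.43 for Pfkp, -0.15 to 8.44 for Pfkfb2, -0.25 to 0.47 for Aldoa, -0.10 to 0.71 for Pgk1, -0.90 to 0.86 for Pgam1, -1.66 to 0.36 for Eno1 and -0.24 to 0.74 for Pkm. For anti-CTLA-4 against anti-PD-1 they were -0.51 to 1.90 for Pfkp, -0.01 to 13.66 for Pfkfb2, -0.17 to 1.26 for Gapdh, -0.45 to 0.05 for Pgk1, -0.36 to 2.80 for Eno1 and -0.78 to 1.62 for Ldha.

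Over all genes, edgeR called 29, 6 and 65 in the 3 comparisons (anti-CTLA-4 against controls, anti-PD-1 against controls, anti-CTLA-4 against anti-PD-1), DESeq2 800, 750 and 943, RLE factors 0, 0 and 0, library totals only 0, 0 and 6, voom 0, 2 and 0, and the replicate block 10, 1 and 12. For anti-CTLA-4 against controls RLE factors moved the median of all genes by 0.28 on the log2 scale, library totals only by -0.22, voom by -0.25 and the replicate block by -0.44. The lower share of DESeq2 calls was 74.1%, 71.3% and 57.8%, against 0%, 50.0% and 1.54%. Adding copies changed no call among the members. The low libraries of Hk2 and Pfkfb2 hold fewer than 10 counts, and the part of depth in this was not tested.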
